A study of Mus musculus with 12 samples.

Results

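The nuclear-encoded genes of oxidative phosphorylation were followed through RNA and ribosome footprints of mouse testes with and without the piRNA pathway protein Maelstrom. Members were taken by name from the gene rows of the count table, as every gene whose symbol begins with Nduf, Uqcr, Cox4 to Cox8 or Atp5, together with Sdha, Sdhb, Sdhc and Sdhd. This gave 92 of 20620 genes, which comprised 36 subunit genes of complex I and 7 of its assembly factors, 4 subunit genes of complex II, 8 of complex III, 19 of complex IV, 15 of complex V, the supercomplex assembly gene Cox7a2l, and 2 genes named after ATP synthase, Atp5s and Atp5sl, whose current RefSeq symbols (Dmac2l and Dmac2) place them outside it. The samples were whole testes of C57BL/6 mice at postnatal day 16, either Mael+/- (heterozygous, the controls) or Mael-/- (null), with 3 replicate extracts per genotype. Total RNA depleted of ribosomal RNA and ribosome footprints were sequenced from parts of the same extract, which gave 12 libraries in 4 groups. Maelstrom acts in germ cells to silence transposons, whereas the extracts were of the whole organ with its somatic cells, and how many animals went into an extract is not given in the sources used here. P-values then measure the spread between these extracts. Because these were bulk samples, fewer cells of a type and less RNA per cell cannot be told apart in any value below.

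Oxidative phosphorylation couples the oxidation of NADH and succinate to the synthesis of ATP in the inner mitochondrial membrane. Complex I (NADH dehydrogenase) and complex II (succinate dehydrogenase) pass electrons through ubiquinone to complex III, cytochrome c carries them to complex IV (cytochrome c oxidase), and complex V (ATP synthase) uses the proton gradient that complexes I, III and IV build. Most subunits are encoded in the nucleus, translated on cytosolic ribosomes and imported, while a few core subunits are encoded by mitochondrial DNA. In the testis several small subunits of complex IV exist in a form made in germ cells, encoded by Cox6b2, Cox7b2 and Cox8c, beside a form used in somatic tissues, encoded by Cox6b1, Cox7b and Cox8a. At the age studied the first wave of spermatogenesis has reached pachytene spermatocytes, and the X chromosome is transcriptionally silenced in these cells.

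The RNA libraries held between 13697267 and 27462358 counts on genes, and the footprint libraries between 7609932 and 13233565. The targeted gene Mael had 3800 to 5045 RNA counts in Mael+/- libraries and 0 to 2 in Mael-/- libraries, and 660 to 1294 against 0 to 7 footprints, which fitted the labels. The extract of Mael+/- replicate 1 stood apart from the others. The summed level of 14 pachytene spermatocyte markers was 933 CPM in its RNA (CPM are counts per 1000000 gene counts, with library sizes scaled by the TMM method), against 283 and 316 CPM in the other Mael+/- libraries and 218 to 253 CPM in the Mael-/- libraries. In footprints the same sum was 1199 CPM against 334 and 423 CPM in Mael+/-, and 290 to 340 CPM in Mael-/-. All 12 pachytene markers that were tested in RNA had a log2 fold change below 0 in Mael-/-, with a median of -1.37. None passed an adjusted p of 0.05 in edgeR, and 10 had an unadjusted p under 0.05, beside 5.41% of all genes. In footprints all 10 tested were below 0, with a median of -1.34. Without Mael+/- replicate 1, a setting chosen for these markers, the assembly factors and Cyct after seeing the data, the medians were -0.45 in RNA, with 11 of 12 below 0 and 2 called, and -0.47 in footprints, with 9 of 10 below 0 and none called in edgeR (5 at an unadjusted p under 0.05). Over all genes that setting called 59 of 14876 in RNA and 17 of 13654 in footprints. The sum of 12 early meiotic prophase markers was also highest in that extract, at 2653 CPM in RNA against 1115 to 1576 CPM in the other libraries. Not every marker of the list followed the sum. Rec8 RNA was lowest in that extract, at 42.0 CPM, and Mei1 and Prdm9 RNA were higher in another library, while the other markers were highest there. Sertoli cell markers summed to 7231 to 8383 CPM in Mael+/- RNA and 7648 to 8231 CPM in Mael-/- RNA, and 7 round spermatid markers to 5.79 to 8.03 CPM over the 6 RNA libraries, of which Prm1, Prm2 and Tnp2 had no RNA count in any library while Tnp1, Odf1, Acrv1 and Spaca1 had some. For some named genes the value without Mael+/- replicate 1 is given beside the main one. Where none is given, a change may still depend on that extract.

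The members spanned a wide range of levels. RNA is given as CPM per kilobase of exon and footprints as CPM per kilobase of coding sequence, as means ± SD over the 6 libraries of an assay. Together the 92 genes took 0.946 to 1.10% of the gene counts of an RNA library, and between 1.08 and 1.22% of those of a footprint library. Among members tested in both assays, the median RNA level rose from 14.2 CPM per kb for the complex I assembly factors to 104 for complex I, 105 for complex II, 125 for complex III, 188 for complex IV and 245 for complex V. The same order held for footprints, with medians of 28.1 CPM per coding kb for the assembly factors, 181 for complex I, 203 for complex II, 238 for complex III, 299 for complex IV and 396 for complex V. Neighbouring complexes overlapped widely in both assays, as the plot of levels by complex shows. The order changed when it was restricted to members whose coding sequence is at least 80% unique in the genome (a measure described with the footprint ratios), where the RNA medians were 107 CPM per kb for complex I, 105 for II, 78.4 for III, 36.1 for IV and 275 for V. These medians are of 25, 4, 5, 9 and 5 genes. Among the 9 of complex IV were the germ cell forms Cox6b2, Cox7b2 and Cox8c and the other tissue forms or paralogs Cox4i2, Cox7a1 and Ndufa4l2. The restriction thus also changed which kinds of genes were counted.

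**Figure D1:**
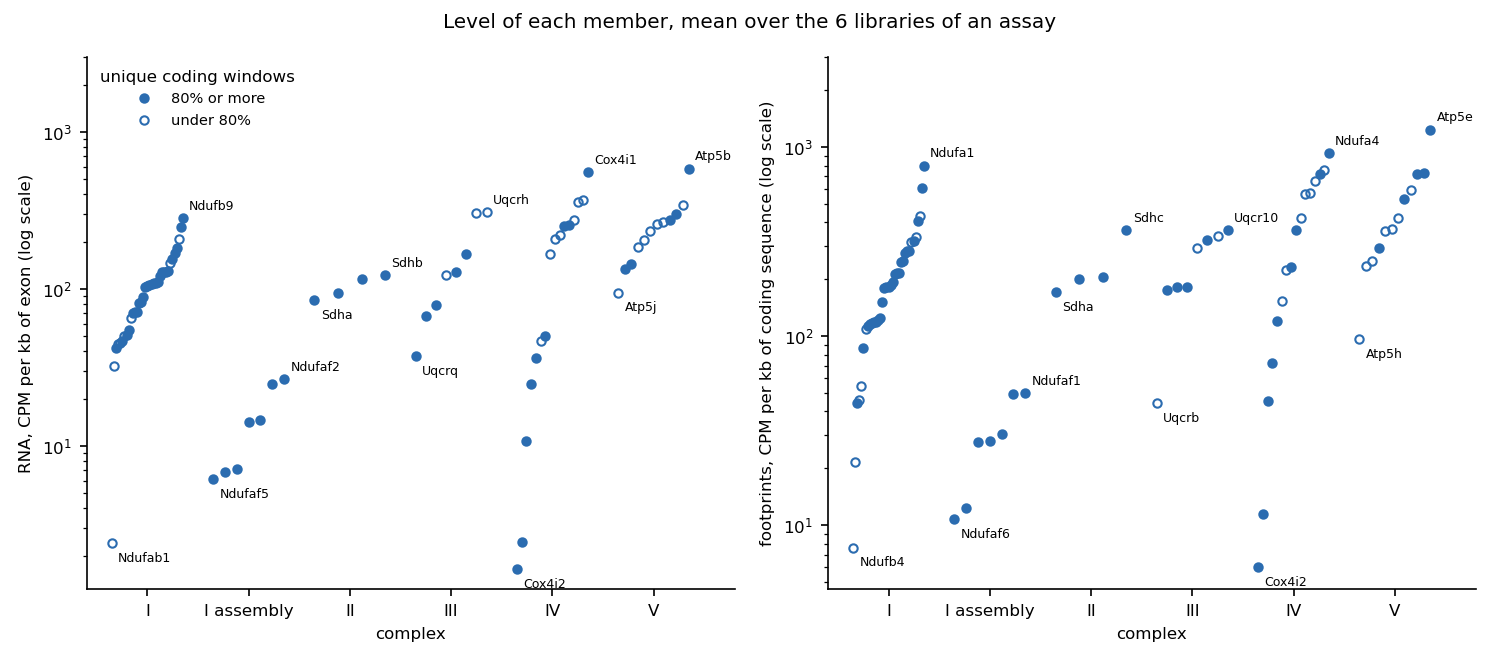
Level of each member tested in both assays, by complex, as the mean over 6 libraries per assay on log scales. Left, RNA in CPM per kb of exon. Right, footprints in CPM per kb of coding sequence. Filled points are genes with 80% or more of their 30-base coding windows found once in the genome, open points are the rest, and the highest and lowest gene of each complex is named. The 7 assembly factors lie between 6.12 and 26.5 CPM per kb in RNA, at the lower end of the range, and complex IV spreads from 1.64 to 555 CPM per kb.

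The highest RNA level per length belonged to Atp5b, the catalytic beta subunit of ATP synthase, at 584 ± 38.2 CPM per kb, followed by Cox4i1, the common form of complex IV subunit 4, at 555 ± 45.9 CPM per kb. These levels differed by less than their spread over libraries. In footprints the highest density was that of Atp5e, the small epsilon subunit in the central stalk of ATP synthase, at 1238 ± 132 CPM per coding kb. Ndufa4, a complex IV subunit that carries a complex I name, followed at 927 ± 83.0 CPM per coding kb, and Ndufa1, a small complex I subunit encoded on the X chromosome, at 799 ± 116 CPM per coding kb. Within complex I the highest RNA was that of Ndufb9 at 282 ± 25.4 CPM per kb and the lowest among those tested that of Ndufab1, the mitochondrial acyl carrier protein, at 2.40 ± 0.245 CPM per kb. The coding sequence of Ndufab1 is 0% unique by the measure above, and its exons span 2189 bases beside 471 coding bases. Its value may thus understate its RNA. Within complex II, RNA ran from 84.8 ± 4.09 CPM per kb for Sdha, the flavoprotein, to 122 ± 8.77 for Sdhb, the iron-sulphur subunit. Complex III ran from Uqcrq, the ubiquinone-binding small subunit, at 37.2 ± 4.11 CPM per kb to Uqcrh, the hinge protein, at 307 ± 26.6 CPM per kb. Uqcrq too has long annotated exons, at 1525 bases beside 249 coding bases, which lowers its RNA per length. The part of these properties in the levels was not tested. Among the assembly factors the highest RNA was that of Ndufaf2 at 26.5 ± 3.07 CPM per kb and the lowest that of Ndufaf5 at 6.12 ± 0.389 CPM per kb.

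The first comparison asked whether loss of Mael changed the RNA of these genes. In edgeR's quasi-likelihood test no member of 89 had an adjusted p under 0.05, beside 17 of 14685 genes tested (0.116%). The lowest adjusted p of any member was 0.677, that of Cox8c. At an unadjusted p under 0.05 there were 3 members, beside 5.41% of all genes. DESeq2 also called no member, beside 66 of 17742 genes, and had 2 members at an unadjusted p under 0.05. The median log2 fold change over the members was -0.01, beside -0.01 over all genes, with 53 members below 0 and 36 above. This count depended on 1 extract, as without Mael-/- replicate 1 there were 28 below 0 and 61 above. The 95% interval of the log2 fold change lay within -0.5 and 0.5 for 81 of the 89 members and within -1 and 1 for 84.

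Ribosome footprints gave a similar count. None of 86 members tested was called, beside 8 of 13500 genes (0.0593%), and the lowest adjusted p was 0.574, again of Cox8c. At an unadjusted p under 0.05 there were 5 members, beside 4.33% of all genes. DESeq2 likewise called no member, beside 26 of 17434 genes, and had 5 members at an unadjusted p under 0.05. The median log2 fold change was -0.08, against -0.01 over all genes, and 63 members were below 0 and 23 above, while 52.5% of all genes were below 0. In complex I, 30 of 36 genes were below 0, with a median of -0.09. This shift was small against the spread between libraries. On a log2 scale with each gene centred on its footprint mean, the median member stood at 0.09, -0.10 and 0.11 in the 3 Mael+/- libraries and at -0.02, -0.07 and -0.04 in the 3 Mael-/- ones, so that the groups overlapped. Leaving out Mael+/- replicate 1 moved the median log2 fold change in footprints to -0.03, leaving out Mael+/- replicate 3 moved it to -0.04, and leaving out Mael+/- replicate 2 moved it to -0.14.

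**Figure D2:**
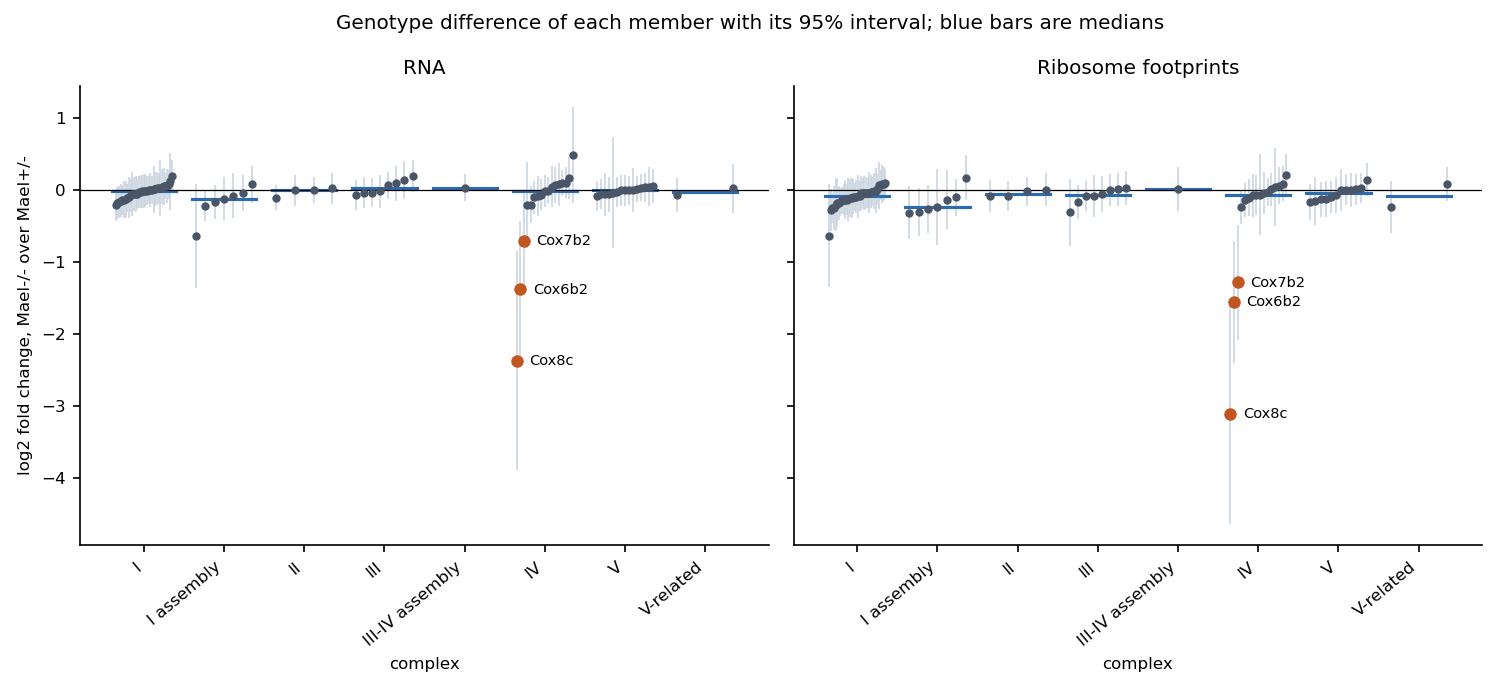
Log2 fold change of each member tested, Mael-/- over Mael+/-, with its 95% interval from edgeR, by complex, in RNA (left) and in footprints (right). Blue bars are the medians of a complex. The 3 germ cell forms of complex IV, in orange, lie below the other members in both assays, while the medians of all complexes lie between -0.23 and 0.03.

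In 10 of the 89 members the 3 Mael-/- RNA libraries were all below the 3 Mael+/- libraries, a share of 11.2% beside 5.67% of all genes, and in 2 members (2.25%) they were all above, beside 4.77% of all genes. The lower ones were Cox6b2, Cox7c, Cox8c, Ndufa5, Ndufa9, Ndufaf1, Ndufs3, Ndufs7, Ndufv2 and Sdha, and the higher ones Cox4i2 and Ndufb11. In footprints 9 of 86 members (10.5%) were lower without overlap, beside 4.87% of all genes, and 2 (2.33%) were higher, beside 4.19% of all genes. Cox6b2, Cox8c and Ndufs7 were lower without overlap in both assays. The share of all genes that were so in both assays was not computed. As RNA and footprints came from the same extracts, the shares per assay do not give it, and nothing is concluded from this overlap. None of these genes was called in either assay, and those outside the naming rule were named after their values were seen.

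The largest differences between genotypes were those of the germ cell forms of complex IV. Cox6b2 encodes the testis form of subunit 6b, which lies on the intermembrane side of the enzyme. Its RNA level was 40.3, 11.1 and 14.0 CPM in Mael+/- replicates 1 to 3 and 7.45, 10.5 and 7.17 CPM in Mael-/- replicates 1 to 3. Its footprints were 59.7, 20.1 and 20.0 CPM in Mael+/- and 10.8, 9.98 and 13.5 CPM in Mael-/-. Every Mael-/- library lay below every Mael+/- library in both assays, and Mael+/- replicate 1 was far above the rest. The log2 fold change was -1.38 in RNA (SE 0.43, adjusted p = 0.766 in edgeR's quasi-likelihood test) and -1.55 in footprints (SE 0.38, adjusted p = 0.688). Without Mael+/- replicate 1 it was -0.59 in RNA (SE 0.18, adjusted p = 0.332) and -0.82 in footprints (SE 0.16, adjusted p = 0.0954), and over all alternatives the adjusted p ran from 0.173 up to 0.9999 for RNA and from 0.0954 up to 0.99996 for footprints.

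Cox7b2 encodes the testis form of the single-pass membrane subunit 7b. Its RNA level was 39.4, 13.5 and 20.2 CPM in Mael+/- and 14.0, 16.7 and 13.9 CPM in Mael-/-, where the groups overlapped. Its footprints were 147, 47.2 and 50.6 CPM in Mael+/- and 33.8, 33.8 and 33.4 CPM in Mael-/-, and these did not overlap. The Mael-/- footprint libraries lay close together, with an SD of 0.261 CPM (n = 3). The log2 fold change was -0.71 in RNA (SE 0.32, adjusted p = 0.924 in edgeR's quasi-likelihood test) and -1.28 in footprints (SE 0.36, adjusted p = 0.781). Without Mael+/- replicate 1 it was -0.18 in RNA (SE 0.16, adjusted p = 0.961) and -0.54 in footprints (SE 0.10, adjusted p = 0.0921), and over all alternatives the adjusted p in footprints ran from 0.0921 to 0.99997.

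Cox8c encodes the testis form of subunit 8, and was the lowest of the 3. Its RNA level was 19.4, 2.64 and 3.71 CPM in Mael+/- and 1.74, 1.78 and 1.46 CPM in Mael-/-. Its footprints were 39.5, 4.26 and 10.1 CPM in Mael+/- and 2.58, 1.70 and 1.89 CPM in Mael-/-. The groups did not overlap in either assay, and the level in Mael+/- replicate 1 was 6.09 times the mean of the other Mael+/- libraries in RNA and 5.52 times in footprints. The log2 fold change was -2.37 in RNA (SE 0.68, adjusted p = 0.677 in edgeR's quasi-likelihood test) and -3.10 in footprints (SE 0.69, adjusted p = 0.574). Without Mael+/- replicate 1 it was -0.95 in RNA (SE 0.26, adjusted p = 0.214) and -1.80 in footprints (SE 0.35, adjusted p = 0.111), and over all alternatives the adjusted p ran from 0.151 up to 0.9999 for RNA and from 0.0103 up to 0.99996 for footprints.

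**Figure D3:**
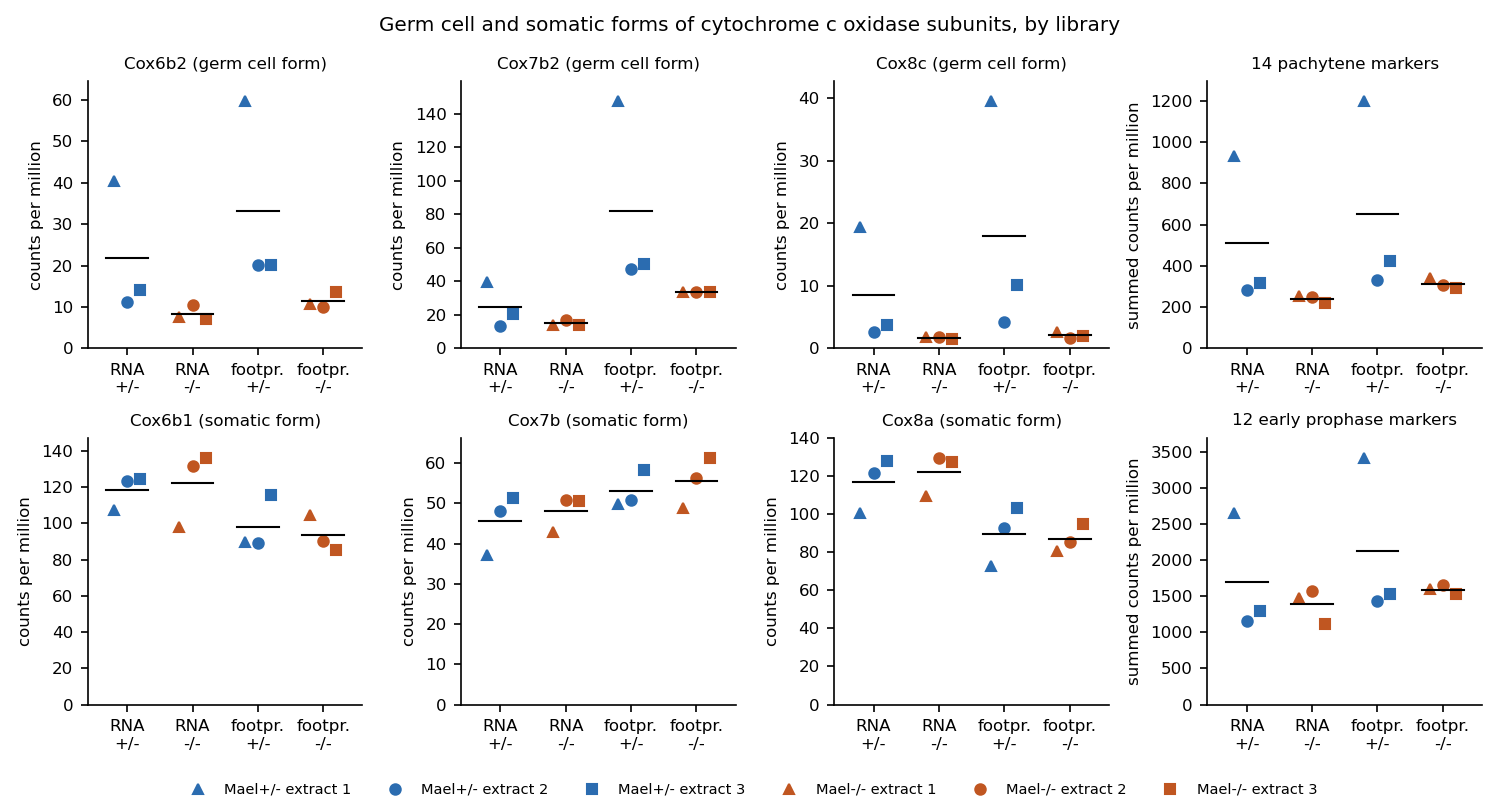
Levels of the 3 germ cell forms (top) and their somatic partners (bottom) in CPM in each library, with the summed CPM of 14 pachytene and 12 early prophase markers on the right. Blue symbols are Mael+/- extracts, orange symbols Mael-/- extracts, the shape gives the replicate, and black bars are means (n = 3). The triangle of Mael+/- replicate 1 is the highest in all germ cell forms and both marker sums, and the somatic partners lie at similar levels in both genotypes.

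The somatic partners were measured at similar levels in both genotypes. Cox6b1 RNA was 118 ± 9.49 CPM in Mael+/- and 122 ± 20.8 CPM in Mael-/- (SD, n = 3), with a log2 fold change of 0.05 and a 95% interval from -0.24 to 0.33. Cox7b RNA was 45.6 ± 7.52 CPM and 48.1 ± 4.51 CPM, with an interval from -0.22 to 0.38. Cox8a RNA was 117 ± 14.2 CPM and 122 ± 11.1 CPM, with an interval from -0.18 to 0.32. In footprints the log2 fold changes of the partners were -0.07, 0.06 and -0.04, and no interval reached beyond -0.35 or 0.32.

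The ratio of the germ cell to the somatic form within a library does not depend on scaling. For each pair it was taken as log2 of the counts plus 1, and compared between genotypes with a two-sided exact permutation test, which with 3 against 3 libraries cannot go below p = 0.1. The log2 Cox6b2 to Cox6b1 ratio in RNA was -2.67 ± 1.10 in Mael+/- and -3.87 ± 0.33 in Mael-/- (SD, n = 3, exact p = 0.1), a difference of -1.19. In footprints it was -1.75 ± 1.03 and -3.03 ± 0.33 (SD, n = 3, exact p = 0.1), a difference of -1.28. The Cox8c to Cox8a ratio differed by -1.84 in RNA and by -2.48 in footprints, with exact p = 0.1 in each. The Cox7b2 to Cox7b ratio differed by -0.66 in RNA (exact p = 0.3) and by -1.13 in footprints (exact p = 0.1). Adjusted over the 6 tests, the value was 0.12 for the ratios at the lowest p and 0.3 for Cox7b2 in RNA. Without Mael+/- replicate 1 the differences were -0.56 and -0.69 for Cox6b2, -0.11 and -0.56 for Cox7b2, and -0.86 and -1.48 for Cox8c, in RNA and footprints respectively. The part of the pachytene marker level, which was highest in the same extract, in these differences was not tested.

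Per length, the germ cell forms were the minor form in most libraries. Cox6b2 made up 22.6% of the RNA of Cox6b2 and Cox6b1 in Mael+/- replicate 1, and 3.92 to 8.05% in the other 5 extracts. Cox8c made up 18.0% of the RNA of Cox8c and Cox8a in that extract, and 1.29 to 3.22% in the others. Cox7b2 was closest to its partner, with 66.2% of the RNA in that extract and 33.6 to 42.0% in the others. Footprints per coding length over RNA per length were higher for Cox6b2 than for Cox6b1 in 6 of 6 extracts, by 0.56 to 1.71 on the log2 scale, and higher for Cox8c than for Cox8a in 6 of 6 extracts, by 0.28 to 1.49. For Cox7b2 and Cox7b the difference ran from -0.04 to 0.81 and was above 0 in 5 of 6 extracts. The coding windows of the germ cell forms were 98.2 to 100% unique in the genome, while those of Cox6b1, Cox8a and Cox7b were 81.5, 72.4 and 64.5% unique, and the part of this in the differences was not tested.

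The promoters of these genes are shown because the germ cell forms were highest in the same extract and their somatic partners were not. The 250 bases before the RefSeq start (build GRCm38.p6, coding strand, 5′ to 3′) are given in lower case, with CCAAT or its reverse complement ATTGG and the ETS motif CCGGAAG or its reverse complement CTTCCGG in capitals. The windows are chr7:4753095-4753344 (minus strand) for Cox6b2, chr5:71548206-71548455 (minus strand) for Cox7b2, chr7:30626115-30626364 (minus strand) for Cox6b1, chrX:106015450-106015699 (plus strand) for Cox7b and chr19:7217617-7217866 (minus strand) for Cox8a. Cox8c had no entry in the promoter table.
Cox6b2: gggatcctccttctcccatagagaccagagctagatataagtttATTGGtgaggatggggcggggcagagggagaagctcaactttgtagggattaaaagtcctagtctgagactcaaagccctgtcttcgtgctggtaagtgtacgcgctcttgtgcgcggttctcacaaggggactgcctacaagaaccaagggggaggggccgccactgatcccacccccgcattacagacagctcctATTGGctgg
Cox7b2: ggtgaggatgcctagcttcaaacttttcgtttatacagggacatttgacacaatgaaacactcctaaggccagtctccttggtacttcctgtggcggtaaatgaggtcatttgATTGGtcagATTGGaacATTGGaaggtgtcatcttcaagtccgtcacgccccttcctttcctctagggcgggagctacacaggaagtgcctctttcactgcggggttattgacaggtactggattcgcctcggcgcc
Cox6b1: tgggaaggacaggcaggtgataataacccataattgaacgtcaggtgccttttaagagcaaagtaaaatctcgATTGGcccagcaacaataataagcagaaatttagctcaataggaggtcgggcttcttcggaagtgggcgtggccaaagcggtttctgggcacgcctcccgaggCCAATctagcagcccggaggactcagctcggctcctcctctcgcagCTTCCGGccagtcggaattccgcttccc
Cox7b: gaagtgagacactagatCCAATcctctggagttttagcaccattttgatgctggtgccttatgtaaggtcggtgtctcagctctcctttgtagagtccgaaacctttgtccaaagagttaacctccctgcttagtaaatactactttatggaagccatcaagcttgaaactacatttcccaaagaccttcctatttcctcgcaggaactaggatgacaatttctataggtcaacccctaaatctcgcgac
Cox8a: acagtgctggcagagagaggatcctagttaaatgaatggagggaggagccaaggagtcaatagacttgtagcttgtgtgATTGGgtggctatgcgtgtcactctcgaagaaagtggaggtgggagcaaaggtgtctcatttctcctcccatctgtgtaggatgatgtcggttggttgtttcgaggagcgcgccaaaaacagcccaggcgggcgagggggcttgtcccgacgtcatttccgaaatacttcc

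Over the 76 members with a promoter entry, each motif was searched on both strands in the window from 250 bases before to 50 bases after the start, and set beside its share among all 27025 genes in the table. The ETS motif CCGGAAG, bound by factors such as GABP that are known to act on respiratory genes, was in 17 member promoters (22.4%) and in 9.93% of all. The motif GCATGCGC, the core of the NRF1 site, was in 12 (15.8%) and in 3.05% of all, and the YY1 motif ATGGCGGC was in 7 (9.21%) and in 2.61% of all. CCAAT was in 34 (44.7%) and in 41.1% of all, the cyclic AMP response element TGACGTCA in 4 (5.26%) and in 2.03% of all, and the MYB motif CNGTTA in 14 (18.4%) and in 25.9% of all. Motifs were searched one by one, so matches of different motifs may share bases, and a match is a description of letters in a window. The sequences printed above stop at the start, so matches that reach past it are not shown there. In the full window Cox8a had 2 ETS matches, against 0 in its printed bases. CCAAT had 3 matches against 2 printed in Cox6b2 and in Cox6b1, and 2 against 1 in Cox7b. Sequences and starts were those of RefSeq (GRCm38.p6), and 16 members had no entry.

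Other tissue forms stayed low beside their common partners. Cox8b, the form of subunit 8 in heart and skeletal muscle, had 0 to 2 RNA counts per library, and Cox6a2, the muscle form of subunit 6a, had 2 to 6. Neither was tested. Cox4i2, a form of subunit 4 known from lung, had 0.912, 1.03 and 1.02 CPM of RNA in Mael+/- and 1.30, 1.83 and 1.06 CPM in Mael-/-, with a log2 fold change of 0.49 (SE 0.30), and made up at most 0.448% of the RNA of both forms of subunit 4. Ndufa4l2, a paralog of Ndufa4, made up 0.788 to 1.25% of the RNA of that pair. Cox7a1, the heart and muscle form of subunit 7a, was the exception, with 21.0 to 25.2% of the RNA of Cox7a1 and Cox7a2 and 13.9 to 21.6% of their footprints. Its level was 17.4 ± 1.66 CPM in Mael+/- RNA and 19.5 ± 2.21 CPM in Mael-/- RNA (SD, n = 3), with a log2 fold change of 0.16 (SE 0.13) in RNA and 0.20 (SE 0.13) in footprints. Peritubular myoid cell markers summed to 891 to 935 CPM in Mael+/- RNA and to 1004 to 1054 CPM in Mael-/- RNA, and striated muscle markers to 29.5 to 42.2 CPM and 32.2 to 33.3 CPM. Their part in the level of Cox7a1 was not tested.

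Among the core subunits of complex I, Ndufs7, an iron-sulphur subunit near the ubiquinone site, was lower in Mael-/- without overlap in both assays. Its RNA was 67.1, 68.8 and 63.1 CPM in Mael+/- and 51.5, 59.7 and 60.6 CPM in Mael-/-, and its footprints were 83.8, 92.8 and 80.6 CPM against 70.3, 74.6 and 70.8 CPM. The log2 fold change was -0.21 in RNA (SE 0.10, adjusted p = 0.936 in edgeR's quasi-likelihood test) and -0.25 in footprints (SE 0.09, adjusted p = 0.998). Without Mael+/- replicate 1 it was -0.20 and -0.27, so this difference did not rest on that extract.

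Of the complex I assembly factors with an Ndufaf name, 6 of 7 had a log2 fold change below 0 in each assay. The shares over all genes were 52.3% in RNA and 52.5% in footprints. Without Mael+/- replicate 1, 5 of 7 were below 0 in each assay. Most assembly factors of this complex with other names were above 0. For Foxred1, Nubpl, Acad9, Ecsit, Tmem126a, Tmem126b and Timmdc1 the RNA values were -0.13, 0.09, 0.12, 0.01, 0.02, 0.16 and 0.17. Their footprint values, in the same order, were -0.04, 0.07, 0.16, 0.0009, -0.06, 0.02 and 0.19. Ndufaf1, which helps assemble the membrane arm, had RNA at 42.5, 37.2 and 39.2 CPM in Mael+/- and 34.5, 33.4 and 34.0 CPM in Mael-/-, a log2 fold change of -0.22 (SE 0.10, adjusted p = 0.902 in edgeR's quasi-likelihood test). Ndufaf3 had RNA at 41.6, 16.9 and 16.2 CPM in Mael+/- and 13.9, 16.9 and 16.8 CPM in Mael-/-. Its log2 fold change of -0.64 (SE 0.32) rested on Mael+/- replicate 1 and was -0.05 without it. Among the members tested, 4 had RNA in Mael+/- replicate 1 over 1.5 times the mean of the other Mael+/- libraries, namely Cox6b2, Cox7b2, Cox8c and Ndufaf3, and the median of this ratio over 89 members was 0.988. In footprints Ndufaf7 joined them.

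In complex II, Sdha RNA was 254, 249 and 252 CPM in Mael+/- and 223, 241 and 237 CPM in Mael-/-, a log2 fold change of -0.11 (SE 0.08), and its footprints differed by 0.01 (SE 0.10). Sdhb, Sdhc and Sdhd had log2 fold changes between -0.08 and 0.03 in both assays. In complex III, Uqcr11, a small subunit, had RNA at 110, 127 and 133 CPM in Mael+/- and 128, 147 and 149 CPM in Mael-/-, a log2 fold change of 0.20 (SE 0.10), which was 0.13 without Mael+/- replicate 1. In complex IV, Cox5b, a zinc-binding subunit, had footprints at 64.7, 60.4 and 70.5 CPM in Mael+/- and 60.6, 53.7 and 51.0 CPM in Mael-/-, a log2 fold change of -0.24 (SE 0.11), with overlapping libraries. In complex V the log2 fold changes ran from -0.08 to 0.05 in RNA over 15 genes and from -0.17 to 0.14 in footprints over 12 genes. Atp5b RNA was 1045, 1168 and 1116 CPM in Mael+/- and 984, 1105 and 1167 CPM in Mael-/-, with a 95% interval of the log2 fold change from -0.24 to 0.18.

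The X-linked members were Ndufa1, Ndufb11 and Cox7b. Ndufb11, a membrane-arm subunit of complex I, had RNA at 50.1, 57.1 and 59.7 CPM in Mael+/- and 60.4, 65.0 and 65.5 CPM in Mael-/-, which did not overlap, with a log2 fold change of 0.19 (SE 0.10, adjusted p = 0.948 in edgeR's quasi-likelihood test). Without Mael+/- replicate 1 this log2 fold change was 0.13. Cox7b RNA was 37.1, 48.2 and 51.4 CPM in Mael+/- and 42.9, 50.9 and 50.5 CPM in Mael-/-. Ndufa1 RNA was 72.1, 63.6 and 61.2 CPM in Mael+/- and 50.7, 70.4 and 62.3 CPM in Mael-/-. The extract of Mael+/- replicate 1, with the highest pachytene markers, was thus the lowest for Ndufb11 and Cox7b and the highest for Ndufa1. In the annotation 12.9% of the exon bases of Ndufb11 lie in exons of Rbm10 on the other strand, and the strand setting of the counting is not given in the sources used here.

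The change of translation efficiency, that is of footprints relative to RNA, was tested as the genotype-by-assay interaction in 1 model of the 12 libraries. None of 85 members and none of 13448 genes (0%) passed in edgeR, with 0 members and 0.387% of all genes at an unadjusted p under 0.05. DESeq2 called none of 92 members and 0 of 18024 genes, with 1 member at an unadjusted p under 0.05. Since RNA and footprints came from the same extracts, the fit was repeated with the extract as a replicate block. With the block 0 members and 0 genes were called, and 5 members had an unadjusted p under 0.05. The share of all genes at that p is given only for the fit without the block. The median log2 change over the members was -0.05, with 61 below 0 and 24 above, beside a median of 0.00 and 49.1% below 0 over all genes, and it was -0.01 without Mael+/- replicate 1 and -0.13 without Mael-/- replicate 1. The lowest values were those of Cox8c at -0.74 (SE 1.17), Ndufb4 at -0.64 (SE 0.36) and Cox7b2 at -0.57 (SE 0.57). With the block they were -0.78 (SE 0.28), -0.59 (SE 0.31) and -0.50 (SE 0.14), and without Mael+/- replicate 1 they were -0.85, -0.75 and -0.36. Uqcrq differed by -0.31 (SE 0.16), and by -0.49 (SE 0.14) without Mael+/- replicate 1. The highest was that of Ndufaf3 at 0.41 (SE 0.47), which was 0.20 without that replicate. In the fit without the block, the 95% interval lay within -1 and 1 for 79 of the 85 members and within -0.5 and 0.5 for 60. That fit does not use the shared extracts.

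Footprints per coding length over RNA per length varied widely among members. The median of this log2 ratio was 1.01 over 85 members and 0.87 over 13385 genes. Many respiratory genes have processed pseudogenes, whose copies leave reads without a unique place in the genome, and how such reads were counted is not given in the sources used here. Of all 30-base coding windows of a gene, the share found nowhere else on the assembled chromosomes was 80% or more in 59 members, under 80% in 33 and 0% in 6, which were Atp5g1, Atp5g2, Atp5l, Cox7c, Ndufab1 and Ndufb4. The median log2 ratio was 1.03 over the 57 members tested with 80% or more unique windows, 0.86 over 23 members with 20 to 80%, and -1.27 over 5 members with under 20%.

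**Figure D4:**
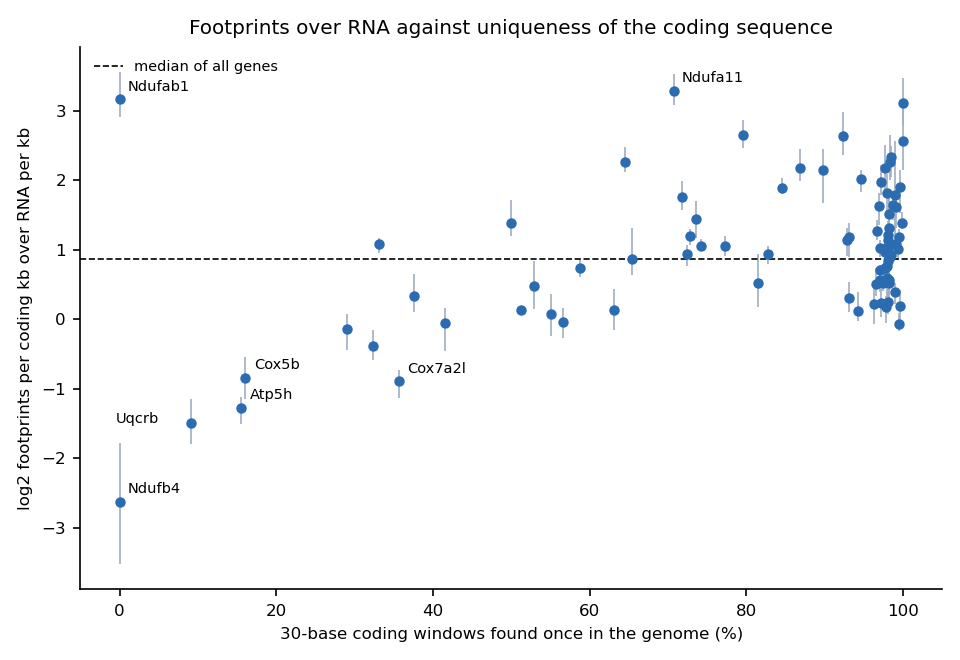
Log2 ratio of footprints per coding kb to RNA per kb of exon for the 85 members tested in both assays, against the percentage of 30-base coding windows found once in the genome. Points are means over 6 extracts, bars run from the lowest to the highest extract, and the dashed line is the median of all genes (0.87). Of the 5 members under 20%, 4 lie at -0.84 or below, and Ndufab1 lies at 3.16.

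The 4 lowest ratios were those of Ndufb4 at -2.62, Uqcrb at -1.49, Atp5h at -1.27 and Cox7a2l at -0.88, whose coding windows were 0, 9.12, 15.5 and 35.6% unique. The 4 highest were those of Ndufa11 at 3.29, Ndufab1 at 3.16, Uqcrq at 3.11 and Atp5j at 2.65. Of these, Ndufa11, Ndufab1 and Uqcrq have long annotated exons, at 2661, 2189 and 1525 bases, beside coding sequences of 432, 471 and 249 bases, and the length used for RNA lowers their RNA per length. The part of either property in the ratios was not tested.

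Some members had counts in one assay and almost none in the other. Cox7c, a small subunit of complex IV, had 565 to 1549 RNA counts but 0 to 2 footprints. Atp5g1 and Atp5g2, which encode the same mature c subunit of the ATP synthase rotor as Atp5g3, had 1028 to 2201 and 223 to 555 RNA counts but 3 to 14 and 0 to 8 footprints. Atp5g3, whose coding windows were 98.5% unique, had 267 to 341 CPM of footprints in every library. Ndufs5, a complex I subunit, went the other way, with 0 RNA counts in all 6 libraries and 125 to 258 footprints. Atp5l had 14 to 28 RNA counts and 2 to 7 footprints. For these genes the deposited counts give no measure of translation, and a low or absent count was not read as low expression.

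The first 30 coding bases that lie in 1 exon are shown for these genes, with Cox7b2 for contrast, because they show how short coding stretches recur (build GRCm38.p6, 5′ to 3′, all on the minus strand). That of Cox7c at chr13:86046646-86046675 had 2 further exact copies on the assembled chromosomes, that of Atp5g1 at chr11:96074996-96075025 had 2, that of Atp5g2 at chr15:102667720-102667749 had 3, that of Ndufs5 at chr4:123716050-123716079 had 1 and that of Cox7b2 at chr5:71443184-71443213 had 0.
Cox7c: atgttgggccagagtatccggaggttcacg
Atp5g1: atgcagaccaccaaggcactgctcatttct
Atp5g2: atgtacgcctgctccaagttcgtctctacc
Ndufs5: atgcctttccttgacatacagaaaaagctg
Cox7b2: atgatgtttcccttggccagatatgcacta

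Other genes of the pathway were read from the same fits. Of 11 electron carriers and translocases, 42 assembly factors and 13 regulators in the table, none was called by edgeR in RNA, footprints or translation efficiency, beside 0.116, 0.0593 and 0% of all genes. At an unadjusted p under 0.05 there were 1 carrier and 1 regulator in RNA, 2 carriers and 1 assembly factor in footprints, and 0 in translation efficiency, beside 5.41, 4.33 and 0.387% of all genes. The numbers tested were 11 carriers, 13 regulators and 41 assembly factors in RNA, 11, 13 and 42 in footprints, and 11, 13 and 41 in translation efficiency. Cyct, the testis form of cytochrome c, had footprints at 43.7, 13.2 and 16.5 CPM in Mael+/- and 12.3, 11.3 and 11.0 CPM in Mael-/-, without overlap, and RNA at 28.7, 11.9 and 12.8 CPM against 8.68, 11.5 and 12.2 CPM, so that it too was highest in Mael+/- replicate 1. Its log2 fold change was -0.71 in RNA and -1.09 in footprints, and -0.18 and -0.37 without that extract. Cycs, the somatic cytochrome c, had RNA at 65.6 to 99.1 CPM in all libraries, with a log2 fold change of -0.01. Slc25a31, the germ cell ADP/ATP translocase, had RNA at 167, 126 and 115 CPM in Mael+/- and 134, 153 and 135 CPM in Mael-/-, and footprints at 377, 256 and 261 CPM against 289, 304 and 296 CPM. It too was highest in Mael+/- replicate 1, and its log2 fold changes with that extract included were 0.05 in RNA and -0.01 in footprints. Apart from that extract, every Mael-/- library of Slc25a31 lay above every Mael+/- library in both assays, a direction unlike that of Cyct. Slc25a4, the muscle form of the translocase, had log2 fold changes of 0.22 in RNA and 0.24 in footprints, and Slc25a5, the widely used form, of 0.07 and 0.01. Cyc1, the cytochrome c1 of complex III, stayed within 129 to 141 CPM in RNA. The assembly factors had a median log2 fold change of 0.02 in RNA and -0.04 in footprints, and the regulators, among them Nrf1, Gabpa, Esrra and Tfam, of -0.01 and -0.06. Subunits encoded by mitochondrial DNA were not analysed here.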

How the data were processed

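RNA and ribosome footprints of 3 Mael+/- and 3 Mael-/- testis extracts were analysed. The deposited values are counts per gene, not normalised. The authors removed ribosomal reads from the footprint libraries with Bowtie 1.2.2. They aligned reads of both assays to mm10 with STAR 2.6.0c and counted with featureCounts (Subread 1.6.4), RNA over whole mRNAs and footprints over coding sequences. Strand setting and multi-mapping reads are not given in the sources used here. The authors' own DESeq2 1.24.0 comparisons were also deposited and were not used.

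Repeat rows, 7.65 to 13.6% of all counts in a library, were left out of library sizes and tests. Genes were filtered with filterByExpr, scaled by TMM and tested on all genes with edgeR 4.0.16 (quasi-likelihood, two-sided, Benjamini-Hochberg adjustment, threshold 0.05) in R 4.3.3, each assay by itself and translation efficiency as the interaction over 12 libraries. CPM were computed from TMM-scaled gene counts. Within-pair ratios used counts plus a pseudocount of 1 and an exact permutation test (scipy 1.17.1). RNA and footprints of 1 extract deviated together (r from 0.25 to 0.79 over 9625 genes). Scripts were tested on simulated data. Alternatives were DESeq2 1.42.0, other scalings, no filter, a replicate block, other pseudocounts and leaving out each extract. Shares of all genes at an unadjusted p are given for the main edgeR fits only.

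Members and gene lists were chosen with earlier results of these data known. Genes were named by a rule: the germ cell and other tissue forms with their partners, X-linked members, any called member, the 5 with the lowest unadjusted p per contrast and direction, those with the highest and lowest RNA per length in a complex, the 4 highest and 4 lowest ratios of footprints to RNA, unmeasured members, 6 carriers and translocases, and Mael. Other genes were named after their values were seen. Lengths, coding windows and promoters were taken from RefSeq GRCm38.p6, in which 89 members matched by symbol and 3 by an older symbol. A result on a withheld item is not reported here.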

Additional observations from a re-analysis of the deposited data

How the results depend on the processing

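The sources used here do not say whether the numbers of the labels pair the genotypes, and the main fits used no block. Deviations of same-numbered extracts correlated at r from -0.07 to 0.32 in RNA and 0.08 to 0.33 in footprints. With deviations from means of 3 libraries, these values cannot decide whether the extracts were paired. With the replicate block, 1 member was called in footprints, Cox8c (log2 fold change -2.90, adjusted p = 0.0103 in edgeR), beside 0 without it, while 0 members were called in RNA and in translation efficiency. Of 114 recomputed summary values (counts, medians and ratios) this count was the only one to move by over 1.5 times for a count or by over 1 SD between replicates for a median or ratio. Within that spread the median in RNA changed sign, from -0.01 to 0.00 under total-count scaling and to 0.05 without Mael-/- replicate 1. The Cox7b2 to Cox7b ratio in RNA went from -0.66 to -0.11 without Mael+/- replicate 1, that of Cox6b2 from -1.19 to -0.56 and that of Cox8c from -1.84 to -0.86. The SD between Mael+/- replicates itself includes replicate 1, at 1.10 for the Cox6b2 ratio in RNA against 0.33 in Mael-/-. For the ratios the criterion was thus a weak check on leaving out that extract. Leaving out each extract in turn, 0 members were called in any comparison, and the median log2 fold change of the members ran from -0.06 to 0.05 in RNA, from -0.14 to -0.03 in footprints and from -0.13 to -0.01 for translation efficiency. Under total-count scaling 44 members were below 0 in RNA and 45 above, against 53 and 36. Of 1408 values of named members 115 changed sign, none of a called result, and 6 moved beyond the replicate spread, all without Mael+/- replicate 1 (Cox6b2 and Cox8c in both assays, Cox7b2 in footprints, Ndufaf3 in RNA). The call of Cox8c was the only one gained.

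Counts over all genes depended on the setting. In RNA 17 genes were called, against 66 by DESeq2, 48 with the replicate block, 59 without Mael+/- replicate 1, 2 without Mael-/- replicate 1 and 8 to 14 without another extract. In footprints 8 were called, against 26 by DESeq2, 22 with the block, 17 without Mael+/- replicate 1 and 2 to 4 without another. Depth limits the low forms: Cox8c had 24 to 446 RNA counts and 16 to 372 footprints.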
